A study of Mus musculus with 4 samples.

Results

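The tumour necrosis factor (TNF) superfamily is a set of trimeric ligands and the matching superfamily of receptors that pass their signals into the cell. Its genes were taken by symbol: Tnf, Lta, Ltb and every symbol that begins with Tnfsf (a ligand) or Tnfrsf (a receptor), read from array rows that name exactly 1 gene. This gave 32 of the 22180 genes tested, 12 ligands and 20 receptors, each with 1 row. The rule uses symbols and no measured value, but it was chosen with earlier results of these data known. Of 35 protein-coding RefSeq symbols that match the rule, Tnfsf12, Tnfsf13 and Tnfsfm13 are named only together, in a row of several genes. Relatives with other symbols (such as Fas, Cd40 and Ltbr) were described as a list of their own.

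The samples were livers of wild-type male C57BL/6J mice, an inbred strain. From 6 weeks of age the animals were given either a normal diet (2 samples) or, for the same 20 weeks, a methionine- and choline-deficient diet (MCD, 2 samples), a widely used dietary model of fatty liver with inflammation. Total liver RNA was read on 4 gene-level oligonucleotide arrays, 1 per sample, and the values are the authors' signals, read as log2, a base inferred from their range. The labels do not say whether a sample is 1 animal or several, so the p-values measure only the spread between these samples, which may be technical. Differences are MCD minus normal diet on the log2 scale, ± is the standard error from limma (n = 2 arrays per diet), and a gene is said to have risen or fallen only at an adjusted p under 0.05 over all 22180 genes.

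TNF ligands are made by immune and epithelial cells as membrane proteins, and some are shed by proteases. Receptors with a death domain can recruit caspase-8 through adaptors, the others bind TRAF adaptors that switch on NF-kappaB and MAP kinases, and decoy receptors bind ligand without passing a signal. In liver the family is known for hepatocyte apoptosis, for inflammation by macrophages and for the regenerative response to injury.

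In MCD livers 5 receptor genes rose, 1 receptor gene fell, and none of the 12 measured ligand genes passed the threshold. Tnfrsf12a, the receptor for the cytokine TWEAK, rose 2.45-fold. The decoy receptor gene Tnfrsf23 rose 2.41-fold, the death receptor gene Tnfrsf10b 2.04-fold, Tnfrsf11a (RANK) 1.80-fold and Tnfrsf19 (TROY) 1.51-fold. Tnfrsf11b, which encodes the secreted decoy osteoprotegerin, was 1.82-fold lower. The 6 called members are 18.8% of the 32, against 9.98% of all genes called. By direction, 6.37% of all genes were called higher and 3.62% lower. The median difference of the members was -0.06, against -0.03 for all genes. The counts rest on the number of arrays: 0 rose and 0 fell without normal diet replicate 1, 0 and 1 without normal diet replicate 2, 2 and 0 without MCD replicate 1, and 3 and 0 without MCD replicate 2. All 6 genes kept their direction in each case, which was fixed in advance because their arrays do not overlap between the diets.

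Signal strength bears on these counts. Of the 32 members 20 lay below the median signal of all genes, 11 of the 12 ligands among them. Of genes below that median 1.84% were called, and of the members there 2 of 20 were called (Tnfrsf10b and Tnfrsf23). At or above it 18.1% of genes were called, and 4 of the 12 members (Tnfrsf11a, Tnfrsf11b, Tnfrsf12a and Tnfrsf19). The lack of calls among the ligands, most of them dim, does not show that their transcripts were at the same level on both diets.

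**Figure D1:**
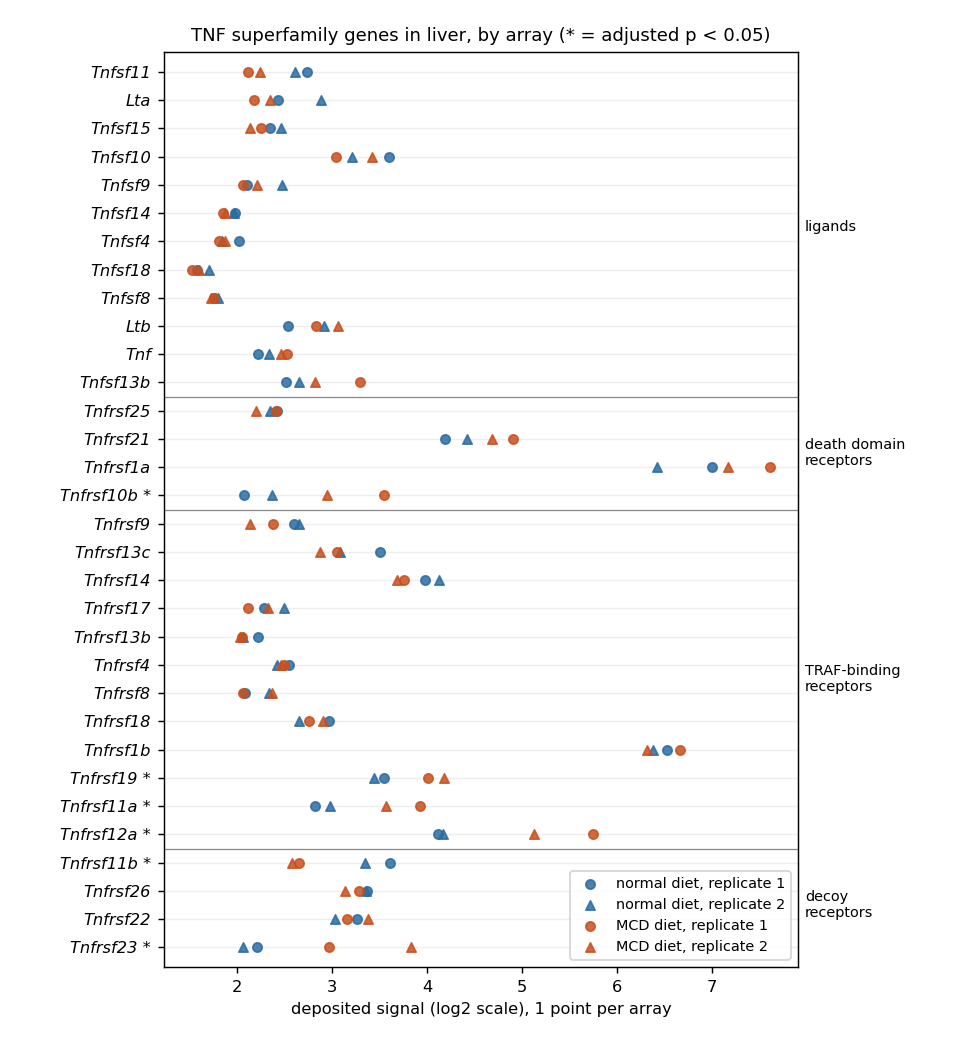
Deposited log2 signal of each of the 32 genes (rows, grouped by role) on the 4 arrays, blue for normal diet and orange for MCD, with circles for replicate 1 and triangles for replicate 2; an asterisk marks an adjusted p under 0.05. The blue and orange points are apart in the 6 called receptors, while most ligands lie low on the axis with the diets close together.

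The sequences just upstream of the receptors that rose are shown because they are the stretch where general and stimulus-responsive factors bind, and because these genes moved in the same direction. The 250 bases before the annotated start were taken from RefSeq (build GRCm38.p6), which held 26 of the 32 members and 4 of the 6 called ones. Tnfrsf10b and Tnfrsf11b were not among them. Each runs 5′ to 3′ along the gene, and capitals mark, on either strand, the GC box GGGCGG, the TATA box TATAAA, the AP-1 motif TGANTCA and the NF-kappaB consensus. The regions are chr17:23677450-23677699, minus strand for Tnfrsf12a; chr1:105780473-105780722, plus strand for Tnfrsf11a; chr7:143685876-143686125, minus strand for Tnfrsf23; and chr14:61037988-61038237, minus strand for Tnfrsf19, the second of its 2 listed starts.
Tnfrsf12a: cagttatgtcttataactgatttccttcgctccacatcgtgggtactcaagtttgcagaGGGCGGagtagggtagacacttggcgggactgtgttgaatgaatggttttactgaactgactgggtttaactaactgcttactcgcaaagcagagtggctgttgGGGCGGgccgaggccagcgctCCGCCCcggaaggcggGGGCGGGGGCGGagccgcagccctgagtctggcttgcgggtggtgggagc
Tnfrsf11a: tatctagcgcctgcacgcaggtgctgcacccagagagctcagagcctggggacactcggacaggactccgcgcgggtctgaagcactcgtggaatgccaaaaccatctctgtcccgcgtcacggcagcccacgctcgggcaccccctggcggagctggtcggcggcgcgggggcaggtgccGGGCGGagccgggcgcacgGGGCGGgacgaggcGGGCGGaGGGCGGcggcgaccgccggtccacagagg
Tnfrsf23: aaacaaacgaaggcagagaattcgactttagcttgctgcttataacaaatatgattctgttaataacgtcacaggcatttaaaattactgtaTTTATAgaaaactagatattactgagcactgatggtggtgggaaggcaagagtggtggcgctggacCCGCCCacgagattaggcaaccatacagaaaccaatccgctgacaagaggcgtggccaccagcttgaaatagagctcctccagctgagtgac
Tnfrsf19: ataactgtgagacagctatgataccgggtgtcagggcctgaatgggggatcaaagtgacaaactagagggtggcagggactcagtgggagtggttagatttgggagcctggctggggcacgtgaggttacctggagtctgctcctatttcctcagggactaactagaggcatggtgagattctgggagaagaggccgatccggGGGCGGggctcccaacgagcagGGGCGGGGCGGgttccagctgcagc

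The 4 windows printed each hold a GC box, as do 32.7% of all 32851 promoter windows of this length, while the first listed start of Tnfrsf19 has 0. Of the 26 members with an entry 11 have a GC box at 1 start or more. Tnfrsf12a has 5 matches and Tnfrsf11a has 4, all of the latter within 69 bases of the start. Tnfrsf23 alone of the 4 has a match of the TATA box letters, which 12.4% of all windows have. That match is on the opposite strand, printed as TTTATA, and begins 158 bases before the start. The NF-kappaB consensus (7.25% of all windows) and the AP-1 motif (6.75%) have no match in these 4 windows, nor in the other start of Tnfrsf19. The NF-kappaB consensus was found in 4 members that did not pass the threshold, Tnfrsf8, Tnfrsf9, Tnfrsf25 and Ltb. For contrast, the second listed start of Tnfrsf9 (GRCm38.p6, chr4:150927749-150927998, plus strand), a co-stimulatory receptor of T cells, holds an overlapping pair of NF-kappaB matches 43 and 42 bases before the start and an AP-1 match 15 bases before it. The first listed start of Tnfrsf9 has 0 matches of either and 1 GC box.
Tnfrsf9: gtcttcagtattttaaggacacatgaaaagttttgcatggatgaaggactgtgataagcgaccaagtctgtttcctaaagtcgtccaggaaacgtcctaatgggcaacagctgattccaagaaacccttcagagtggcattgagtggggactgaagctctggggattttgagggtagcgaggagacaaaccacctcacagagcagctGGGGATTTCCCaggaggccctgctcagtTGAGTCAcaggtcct
Its difference was -0.37 ± 0.14 (limma adjusted p = 0.161). These are matches of letters in a short window, and binding was not measured.

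Among the ligands, Tnf encodes the founding cytokine of the family, made mainly by macrophages. Its signal was 2.22 and 2.33 on normal diet, against 2.52 and 2.47 on MCD. The diets did not overlap, but the difference of 0.22 ± 0.12 did not pass the threshold (95% interval -0.08 to 0.52, limma adjusted p = 0.344). Its chromosomal neighbours Lta and Ltb, which encode the lymphotoxins, differed by -0.39 ± 0.18 and 0.22 ± 0.17.

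Tnfsf11, which encodes RANKL, the ligand of RANK, had the largest difference among the ligands. Its signals were 2.73 and 2.61 on normal diet and 2.12 and 2.25 on MCD, without overlap. The difference of -0.49 ± 0.13 just missed the threshold (limma adjusted p = 0.0665). Tnfsf13b encodes the B cell survival factor BAFF and read 2.52 and 2.65 on normal diet, against 3.30 and 2.82 on MCD. Its arrays did not overlap either, and the difference of 0.47 ± 0.18 had a limma adjusted p of 0.189.

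The other 7 ligands all had negative differences, from -0.21 ± 0.13 for Tnfsf15 to -0.04 ± 0.12 for Tnfsf8. They include Tnfsf10, which encodes the death ligand TRAIL, with signals of 3.60 and 3.21 on normal diet and 3.04 and 3.42 on MCD, where the diets overlapped. The rest, Tnfsf4, Tnfsf9, Tnfsf14 and Tnfsf18, encode co-stimulatory ligands of lymphocytes and differed by -0.09, -0.15, -0.11 and -0.08. Over the 12 ligands limma called 0, and 2 had an unadjusted p under 0.05 (Tnfsf11 and Tnfsf13b), as had 24.2% of all genes.

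The row that names Tnfsf12 (TWEAK, the ligand of Tnfrsf12a), Tnfsf13 (APRIL) and Tnfsfm13 together cannot be assigned to any of them. Its signal was 3.76 and 3.50 on normal diet and 4.56 and 4.35 on MCD, a difference of 0.82 ± 0.15. With rows of several genes tested alongside the others, which was tried once the data were known, its limma adjusted p was 0.0243.

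The receptors with a death domain lay higher in MCD livers in 3 of 4 genes, and 1 passed the threshold. Of all genes 6.37% were called higher. Tnfrsf10b, the mouse death receptor for TRAIL, had signals of 2.08 and 2.37 on normal diet and 3.55 and 2.95 on MCD. Every MCD array was above every normal diet array, and the difference was 1.03 ± 0.22 (95% interval 0.48 to 1.57, limma adjusted p = 0.0412). The call was lost without either normal diet array (adjusted p = 0.147 without replicate 1 and 0.0859 without replicate 2) and without MCD replicate 1 (difference 0.73, adjusted p = 0.119).

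Tnfrsf1a encodes the main TNF receptor of hepatocytes and other parenchymal cells. Its signal was 6.996 and 6.41 on normal diet against 7.61 and 7.17 on MCD. The diets did not overlap, but the gap of 0.58 between the normal diet arrays is nearly as wide as the difference of 0.68 ± 0.24 (limma adjusted p = 0.149). Tnfrsf21 (death receptor 6) read 4.19 and 4.42 on normal diet and 4.90 and 4.69 on MCD, a difference of 0.49 ± 0.15 (limma adjusted p = 0.103). Tnfrsf25, the receptor of Tnfsf15, differed by -0.08 ± 0.13.

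Tnfrsf1b, which encodes the second TNF receptor, found mainly on immune and endothelial cells, belongs to the receptors that bind TRAF adaptors. It read 6.53 and 6.37 on normal diet and 6.66 and 6.31 on MCD, with the diets overlapping and a difference of 0.04 ± 0.16. Its 95% interval of -0.35 to 0.42 bounds the size of any change under this fit. The interval of Tnfrsf1a runs from 0.10 to 1.26, and the difference between the receptors was not tested.

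**Figure D2:**
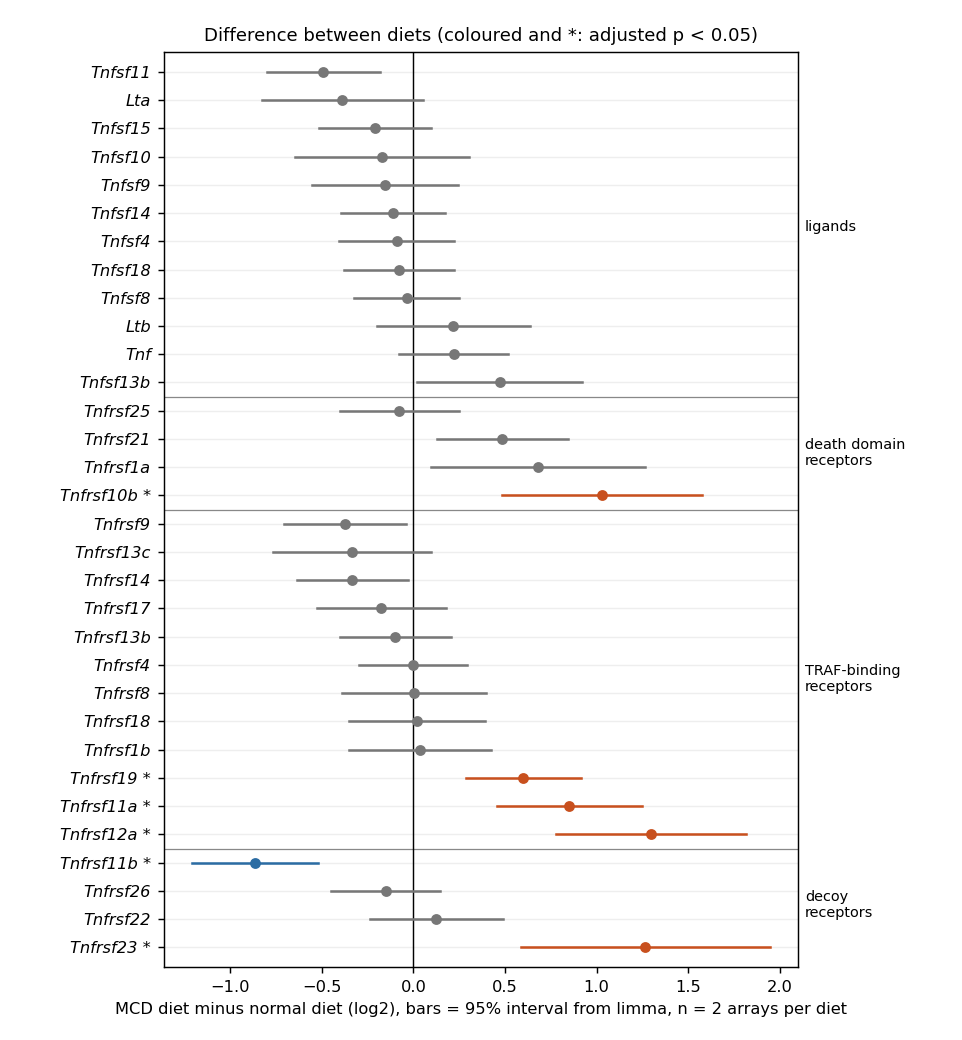
Difference between diets for each gene (MCD minus normal diet, log2), with bars for the 95% interval from limma; orange marks genes called higher, blue genes called lower and grey the rest. Tnfrsf12a (1.30) and Tnfrsf23 (1.27) stand farthest to the right and Tnfrsf11b (-0.86) farthest to the left.

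Of the 12 measured receptors that bind TRAF adaptors 3 rose and 0 fell, against 6.37% and 3.62% of all genes. Tnfrsf12a (Fn14), a small receptor induced in injured epithelium, gave 4.12 and 4.17 on normal diet and 5.75 and 5.13 on MCD. The normal diet arrays lay 0.05 apart and the MCD arrays 0.62 apart, both far above normal diet. The difference was 1.30 ± 0.21 (95% interval 0.78 to 1.81, limma adjusted p = 0.0167). It was 1.27 without normal diet replicate 1 and 1.32 without replicate 2, where the adjusted p was 0.0659 and 0.0672, and the call held without either MCD array.

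Tnfrsf11a encodes RANK, known as the receptor that drives osteoclast formation from myeloid precursors. Its signal was 2.82 and 2.98 on normal diet and 3.93 and 3.57 on MCD, with no overlap. The difference was 0.85 ± 0.16 (95% interval 0.45 to 1.25, limma adjusted p = 0.0274). The call was lost without normal diet replicate 1 (adjusted p = 0.111), normal diet replicate 2 (0.0779) or MCD replicate 1 (0.105).

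Tnfrsf19 (TROY) is an orphan receptor known from epithelial stem and progenitor cells. It read 3.55 and 3.44 on normal diet and 4.01 and 4.17 on MCD, and here the second MCD array was the higher. The difference was 0.60 ± 0.13 (limma adjusted p = 0.0395), the least secure of the 6 calls. It was lost under quantile normalization (0.45, adjusted p = 0.0900), with an intensity trend in the moderation (0.0613) and without any 1 of the 4 arrays (adjusted p 0.0920 to 0.171).

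The other 9 of these receptors, which include most receptors of T and B cells, did not pass the threshold. Tnfrsf9, Tnfrsf13c (the BAFF receptor) and Tnfrsf14 (HVEM) had the largest differences, at -0.37 ± 0.14, -0.33 ± 0.18 and -0.33 ± 0.12, and in each the diets did not overlap. The plasma cell receptor gene Tnfrsf17 differed by -0.17 ± 0.14 and Tnfrsf13b by -0.10 ± 0.12. Tnfrsf4, Tnfrsf8 and Tnfrsf18, receptors of activated T cells, differed by less than 0.03 in size, with overlapping arrays.

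Of the 4 receptors grouped as decoys 1 fell and 1 rose, against 3.62% and 6.37% of all genes. The other 2 did not pass the threshold. Tnfrsf11b (osteoprotegerin), which binds RANKL and TRAIL, read 3.61 and 3.35 on normal diet and 2.65 and 2.58 on MCD. Both MCD arrays were below both normal diet arrays, and the gene fell by 0.86 ± 0.14 on the log2 scale (95% interval -1.21 to -0.52, limma adjusted p = 0.0162). Its call was lost without normal diet replicate 1 (adjusted p = 0.0683), MCD replicate 1 (0.0682) or MCD replicate 2 (0.0686), with differences of -0.73, -0.90 and -0.83.

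Tnfrsf23, a mouse decoy receptor for TRAIL, had signals of 2.21 and 2.06 on normal diet and 2.97 and 3.83 on MCD. The MCD arrays were both higher but 0.87 apart, the widest replicate gap of any member. The difference was 1.27 ± 0.28 (95% interval 0.59 to 1.94, limma adjusted p = 0.0420). The call was lost without normal diet replicate 1 (adjusted p = 0.107) or 2 (0.155), and without MCD replicate 2 the difference was 0.83 (adjusted p = 0.0502). The adjacent genes Tnfrsf22, another decoy for TRAIL, and Tnfrsf26 differed by 0.12 ± 0.15 and -0.15 ± 0.12. These 3 neighbours are close relatives whose probes may share signal, so the assignment of the rise to Tnfrsf23 is uncertain.

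Ligands and receptors were set side by side where each had a row of its own, which leaves out Tnfrsf12a, whose ligand shares its row with other genes, and the orphan Tnfrsf19. Of 20 ligand and receptor pairs with both sides measured, 4 had a called receptor and 0 a called ligand. For RANKL the ligand differed by -0.49, its signalling receptor RANK rose by 0.85 and its decoy osteoprotegerin fell by 0.86 on the log2 scale. For TRAIL the ligand differed by -0.17, while the death receptor Tnfrsf10b rose by 1.03 and the decoy Tnfrsf23 by 1.27. The decoy Tnfrsf22 differed by 0.12 and did not pass the threshold. Osteoprotegerin, which also binds TRAIL and fell by 0.86, is counted among the 20 pairs with RANKL only. For BAFF the ligand differed by 0.47 and its receptors Tnfrsf13b, Tnfrsf13c and Tnfrsf17 by -0.10, -0.33 and -0.17, none of them past the threshold.

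**Figure D3:**
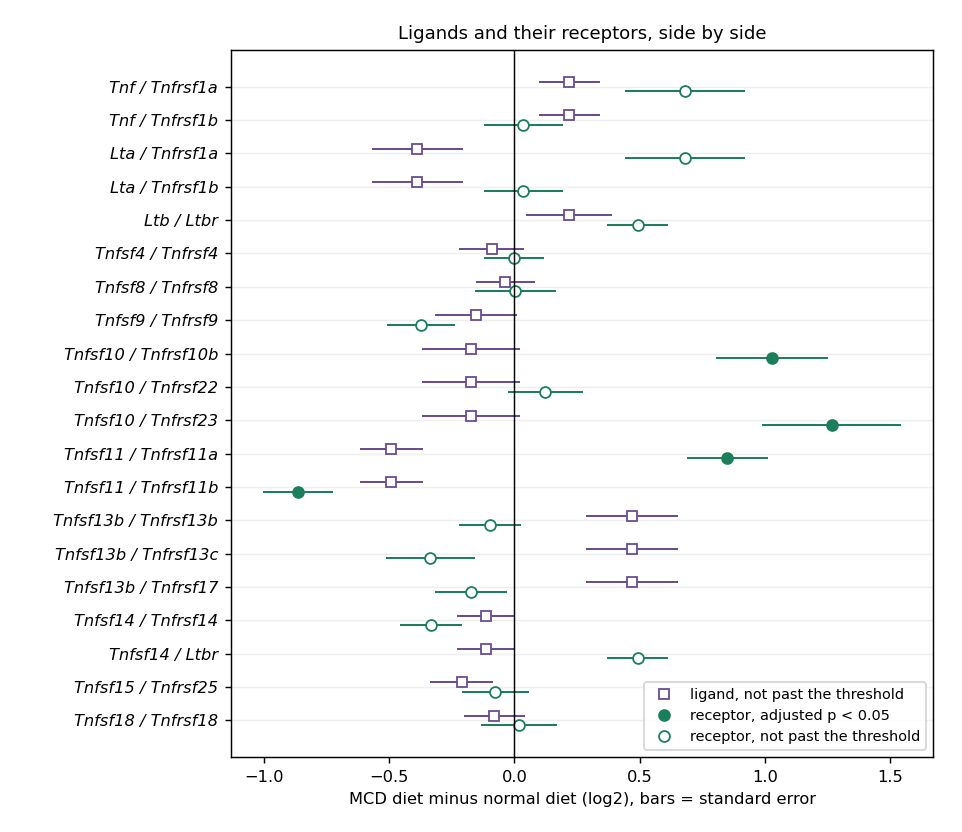
Difference between diets (log2, bars are standard errors) of the ligand (squares) and the receptor (circles) in the 20 pairs with both sides measured; filled symbols passed the threshold, and a gene with several partners appears in several pairs. Filled circles appear in the pairs of Tnfsf10 and Tnfsf11, and no square is filled.

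Over all 32 members, the diets had no overlapping arrays in 20 (62.5%), against 54.2% of all genes. They lay higher on MCD in 9 members (25.0% of all genes) and lower in 11 (29.2%), so the share is near that of all genes. Some members are adjacent in the genome, and whether neighbours move together was not tested. Differences were close in Ltb and Tnf (0.22 and 0.22), Tnfsf4 and Tnfsf18 (-0.09 and -0.08), Tnfrsf1b and Tnfrsf8 (0.04 and 0.00) and Tnfrsf4 and Tnfrsf18 (0.00 and 0.02). They were farther apart in Tnf and Lta (0.22 and -0.39), Tnfsf15 and Tnfsf8 (-0.21 and -0.04) and Tnfrsf22 and Tnfrsf23 (0.12 and 1.27). In 5 of the 6 called members the MCD arrays lay farther apart than the normal diet arrays, as they did in 14 of all 32. The share of all genes with this pattern was not counted. Over all genes the standard deviation of the replicate difference was 0.267 on normal diet and 0.274 on MCD.

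The livers also differed in cell type markers, and in whole tissue more cells of a type cannot be told apart from more RNA per cell. The shares over all genes were 6.37% called higher and 3.62% called lower. Of 7 macrophage markers 6 rose and 0 fell, with a mean signal of 4.37 to 4.46 on normal diet and 6.00 to 6.60 on MCD. All 4 measured cholangiocyte markers rose, from a mean of 2.97 to 3.08 up to 4.46 to 4.55, including Epcam (2.35 ± 0.19) and Krt7 (0.79 ± 0.12). Of 6 stellate cell markers 1 rose (Pdgfrb, 1.38 ± 0.12), with a mean of 5.23 to 5.55 against 5.90 to 5.99. Among 5 neutrophil markers 1 rose (Csf3r, 0.92 ± 0.14), as did Itgax (3.03 ± 0.18) among 4 dendritic cell markers and Jchain (1.36 ± 0.31) among 4 plasma cell markers. The other dendritic cell markers, Flt3, Xcr1 and Zbtb46, differed by 0.42, 0.20 and -0.02 and were not called. The other plasma cell markers, Mzb1, Irf4 and Prdm1, differed by 0.06, -0.05 and -0.23 and were not called either.

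Of 4 Kupffer cell markers 2 fell, and of 6 endothelial markers 2 fell. The other Kupffer cell markers, Vsig4 and Cd5l, differed by 0.64 ± 0.37 and -0.49 ± 0.40 with overlapping arrays. All macrophage, Kupffer cell, stellate cell, endothelial and hepatocyte markers lay above the median signal of all genes. There 18.1% of genes were called in either direction. Hepatocyte markers, which check the tissue label, were all bright and had means of 11.04 to 11.05 on normal diet and 10.69 to 10.82 on MCD, with 1 of 6 lower. Limma called 0 of 7 T cell markers, 0 of 6 B cell markers and 0 of 3 NK cell markers. In these lists 3, 1 and 0 had an unadjusted p under 0.05 in limma, against 24.2% of all genes. The T cell markers went both ways, with 5 positive and 2 negative differences. Cd3e and Cd3g differed by 0.64 ± 0.18 and 0.59 ± 0.18, and Cd4 and Cd3d by -0.39 ± 0.12 and -0.26 ± 0.12. In each of these the diets did not overlap. On this log2 scale no marker reads 0 in any array. The part of these marker shifts in the receptor differences was not tested.

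**Figure D4:**
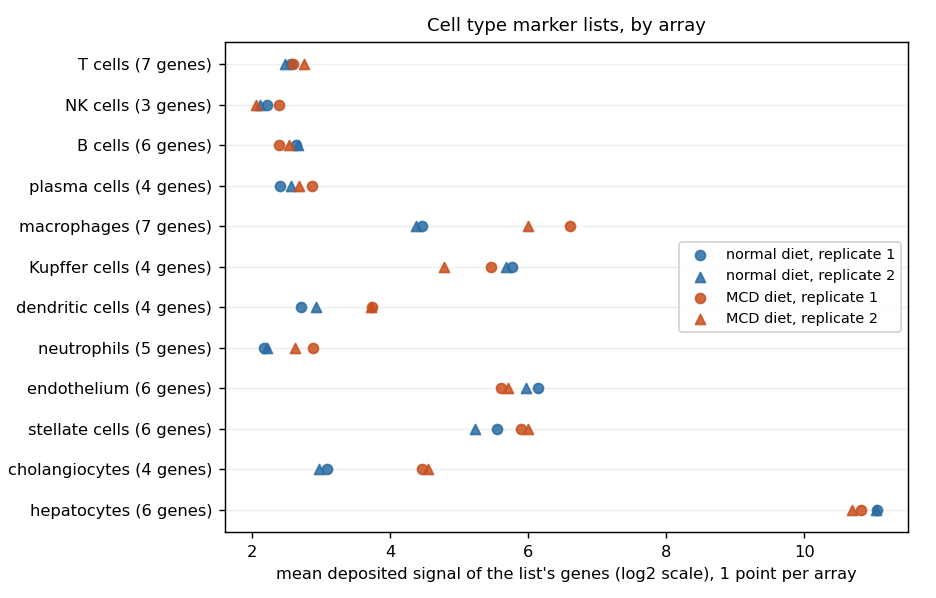
Mean log2 signal of the measured genes of each cell type marker list on each of the 4 arrays, with blue for normal diet and orange for MCD. The macrophage and cholangiocyte lists are higher on both MCD arrays, while the T and B cell lists stay between 2.39 and 2.74 on every array.

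Relatives outside the symbol rule gave no call in limma among 12 measured, and 3 had an unadjusted p under 0.05, as had 24.2% of all genes. Their median difference was -0.10. Ltbr, the lymphotoxin beta receptor, read 6.55 and 6.50 on normal diet and 7.07 and 6.96 on MCD, and its difference of 0.49 ± 0.12 just missed the threshold (limma adjusted p = 0.0586). Eda2r, a receptor of ectodysplasin, differed by 0.68 ± 0.18 (limma adjusted p = 0.0742). Its difference was 0.93 without MCD replicate 2 but 0.44 without MCD replicate 1. Without normal diet replicate 1 or 2 it was 0.67 or 0.69. Fas, the death receptor of hepatocytes, differed by 0.17 ± 0.19.

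Inside the cell, 4 of 29 measured genes of receptor-proximal and NF-kappaB signalling rose and 0 fell, with a median difference of 0.10. Of the 29, 27 lay above the median signal of all genes, where 18.1% of genes were called in either direction, so the count is no more than that background. The 4 that rose were inhibitors and a kinase partner. Tnip1, which restrains NF-kappaB together with A20, rose by 1.05 ± 0.14 (limma adjusted p = 0.00752), with signals of 3.79 and 3.94 on normal diet and 5.01 and 4.82 on MCD. Tnfaip3, which encodes A20 itself, rose by 0.85 ± 0.17 (limma adjusted p = 0.0292), a call lost without either normal diet array (0.0599 and 0.130) or MCD replicate 1 (0.118). Nfkbie, an inhibitor of NF-kappaB, rose by 0.56 ± 0.12 and Tab1, a subunit of the TAK1 kinase complex, by 0.62 ± 0.13. The calls of Nfkbie (adjusted p 0.103 to 0.156) and Tab1 (0.0660 to 0.154) were lost without any 1 array. The adaptors Traf2, Tradd and Fadd differed by 0.10, 0.25 and 0.01, and Rela, the main NF-kappaB subunit, by 0.03.

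Of 6 genes that govern the shedding of TNF ligands and receptors 3 rose and 0 fell, with a median of 0.47. All 6 lay above the median signal of all genes, where 18.1% of genes were called in either direction. Timp3, the tissue inhibitor of the TNF-shedding protease, rose by 1.30 ± 0.13 (limma adjusted p = 0.00377), from 4.99 and 4.78 to 6.13 and 6.23. The protease gene Adam10 rose by 1.04 ± 0.16 (limma adjusted p = 0.0130), and Rhbdf1, which helps the shedding enzyme mature, rose by 0.72 ± 0.15 (0.0340). The call of Adam10 was lost without normal diet replicate 2 (0.0574) or MCD replicate 1 (0.0704). That of Rhbdf1 was lost under quantile normalization (0.0914) and without normal diet replicate 1 (0.123), replicate 2 (0.119) or MCD replicate 2 (0.111). Adam17, which encodes the TNF-shedding protease, differed by -0.11 ± 0.18 with overlapping arrays.

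Of 6 measured death effectors limma called 0, with 4 at an unadjusted p under 0.05, against 24.2% of all genes. All 6 lay above the median signal of all genes, where calls were more frequent. Casp6, an executioner caspase, had the largest difference, 1.13 ± 0.27 (limma adjusted p = 0.0517), and without normal diet replicate 1 it passed at 1.46 (adjusted p = 0.0349). Casp8, the caspase recruited by death receptors, differed by 0.49 ± 0.15, and Cflar, which encodes its inhibitor, by -0.45 ± 0.16.

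Genes known to be switched on by NF-kappaB went both ways. Of 22 measured 7 rose and 2 fell, with a median of 0.17. Of all genes 6.37% were called higher and 3.62% lower. Of the 22, 15 lay above the median signal of all genes, where 18.1% of genes were called in either direction. Lcn2, a lipocalin of injured epithelium, rose by 3.91 ± 0.22 (15.0-fold), and Gadd45b, a growth arrest gene, by 3.11 ± 0.30 (8.61-fold). The adhesion molecule genes Icam1 and Vcam1 rose by 1.41 ± 0.12 and 1.04 ± 0.21. The chemokine gene Cxcl1 rose by 1.50 ± 0.28 and the stress gene Ier3 by 1.22 ± 0.19, while Ccl5 was the smallest of the 7 rises. The cytokine gene Il1b and Sod2, a mitochondrial superoxide dismutase, fell by 0.70 ± 0.15 and 0.61 ± 0.12. The calls of Lcn2, Gadd45b and Icam1 held without each array. That of Vcam1 was lost without normal diet replicate 1 (adjusted p = 0.0722) or either MCD array (0.106 and 0.122), that of Cxcl1 without either MCD array (0.121 and 0.0648), and that of Ier3 without normal diet replicate 2 (0.0554) or MCD replicate 1 (0.0653). Ccl5 lost its call without either normal diet array (0.0517 and 0.0604) or MCD replicate 1 (0.0563). Il1b (0.0528 to 0.150) and Sod2 (0.0728 to 0.146) lost theirs without any 1 array.

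**Figure D5:**
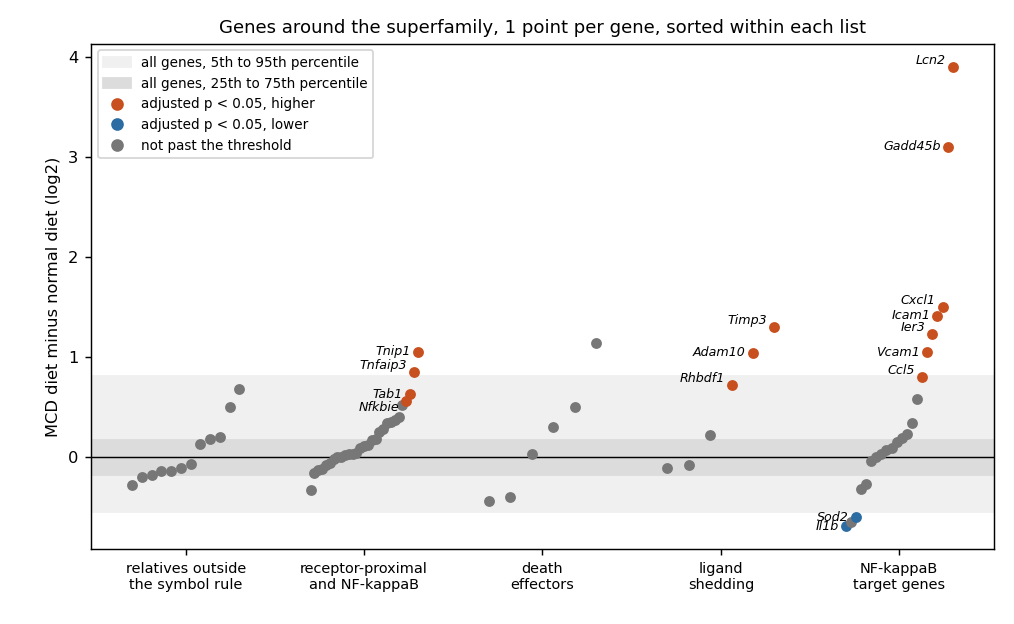
Difference between diets (log2) of each measured gene in 5 lists around the family, sorted within a list; orange marks genes called higher, blue genes called lower, and the grey bands span the middle of all 22180 genes (5th to 95th and 25th to 75th percentile). Lcn2 and Gadd45b stand far above the bands, and no relative or death effector is coloured.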

How the data were processed

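Liver RNA of 4 samples (2 per diet) was hybridised to Mouse Gene 2.1 ST arrays, per the labels' protocols. The deposited values are log2 signals that the authors produced with the Transcriptome Analysis Console software, as named in the submitters' processing notes (per the labels). The log base was inferred from the values, and the sources used here do not give the summarization, background correction or normalization. Of 34472 rows, 23521 name 1 gene, 1814 several and 9137 none in the platform annotation. Per gene the row with the highest mean was used. The table was fitted as deposited, with no filter and no background or detection values, by limma 3.58.1 in R 4.3.3 (linear model, empirical Bayes, two-sided, no block), with Benjamini-Hochberg adjustment over 22180 genes and a threshold of 0.05. The moderation raised 2 residual degrees of freedom to 6.06. The fit was tested on simulated data, in 10 runs with 200 of 22180 genes changed. It recovered 44.4% of changes of size 1 and 96.4% of changes of size 2 on the log2 scale. Of its calls 4.35% were false. In the data 2214 genes were called, many more than the 200 changed in the simulation, and the simulated noise was independent between genes. These rates may therefore not carry over to the data. A gene not called may still have changed by 1 on this scale. Groups came from sample titles. Of the per-sample columns 0 were unused. Medians of the arrays ran from 2.57 to 2.65. Their number limits the precision.

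The members and all lists were chosen with earlier results of these data known. Every member may be named, with array values for the called members, Tnf with its receptors and the largest uncalled differences. Of other lists the called members, up to 6, and up to 2 direct partners were named. Fas, Eda2r, Rela, Traf2, Tradd, Fadd, Casp6, Casp8, Cflar, Ccl5, Il1b, Sod2 and the named markers lie outside that rule and were picked after their values were seen. Some of the listed genes and markers were not analysed here. Motifs were searched in RefSeq promoter sequences of GRCm38.p6, and motifs were chosen after the calls were known. Alternatives were quantile normalization, median centring, removing the 25% or 50% of genes with the lowest means, a trend of the variance with intensity, testing every row, averaging a gene's rows, a replicate block, and removing 1 array at a time.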

Additional observations from a re-analysis of the deposited data

How the results depend on the processing

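The number of members that rose was 5 and the number that fell 1. Without the dimmest 50% of genes, where 12 members remained, 3 rose. Leaving out each array gave 0 to 3 rising and 0 to 1 falling, with 1050 to 1493 genes called in all instead of 2214, since fewer arrays lower the number of calls. With the replicate number as a block 3 members rose, Tnfrsf10b (adjusted p = 0.0682), Tnfrsf19 (0.0683) and Tnfrsf23 (0.0514) lost their calls and Tnfrsf1a gained one (0.0417). The block also left 0 falling target genes. The numbers are shared by the diets, but no label says that they pair animals, and the correlation of the replicate difference between the diets was 0.05 over genes. All 6 called members kept their direction under every alternative in which they were tested. Only quantile normalization and median centring could have reversed it. The filters, trend, block and row settings left their differences unchanged, and removing 1 array cannot reverse arrays that do not overlap. Signalling genes rising numbered 2 under quantile normalization and with an intensity trend, and 1 to 2 without an array. Death effectors rising numbered 1 (Casp6) under quantile normalization, median centring, either filter on dim genes, the trend and the block, and 0 to 1 without an array. Without an array shedding genes rising numbered 1 to 2, target genes rising 3 to 5 and falling 0 to 1, and relatives rising 0 to 1. Target genes falling numbered 1 under quantile normalization and without the dimmest 50%. The causes were not tested. Signal over background was not analysed, so the sizes of differences of dim rows are uncertain.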
